A study of Mus musculus with 20 samples.

Results

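The calcium/calmodulin-dependent protein kinases (CaMKs) were followed through RNA-seq of the hippocampus and the neocortex of WT and miR-324-null mice. The members are 10 genes taken from a list of symbols, and not from their values: *Camk2a*, *Camk2b*, *Camk2d*, *Camk2g*, *Camk4*, *Camkk1*, *Camkk2*, *Camk1*, *Camk1d* and *Camk1g*. They are 10 of the 35580 genes and 96 of the 115270 transcripts of the deposited tables, and all 10 passed the filter on low counts in every comparison. All 20 samples came from male mice of the C57BL/6J strain aged 13.5 months. The WT hippocampus, the miR-324-null hippocampus, the WT neocortex (labelled as cerebral cortex) and the miR-324-null neocortex had 5 samples each. The null mice carry a CRISPR/Cas9 deletion of *Mir324* in every cell. The deletion was made on a mixed background (C57BL/6 and CBA/ca) and then bred into C57BL/6J, and the WT line descends from the same crosses.

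A rise of calcium in a neuron loads calmodulin, and calcium-loaded calmodulin releases the kinases of this family from their own inhibitory segment. CaMKII is a large ring-shaped holoenzyme built from the products of *Camk2a*, *Camk2b*, *Camk2d* and *Camk2g*, it is among the most abundant proteins of the forebrain synapse, and its alpha subunit is required for normal long-term potentiation in the hippocampus. The other members form a cascade, in which the CaMK kinases encoded by *Camkk1* and *Camkk2* phosphorylate and activate CaMKI (*Camk1*, *Camk1d*, *Camk1g*) and CaMKIV (*Camk4*), a nuclear kinase that acts on the transcription factor CREB.

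The 2 mature miRNAs of the deleted gene are shown because their seeds are what the 3′UTRs of the kinases were searched with. Capitals mark the seed, bases 2 to 8, and the sequences are those of RefSeq on GRCm38.p6. The paper describes 2 reported forms of miR-324-3p whose seeds differ, and only the miR-324-3p seed shown here was searched.
miR-324-5p, chr11:70012060-70012082, plus strand: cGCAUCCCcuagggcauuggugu
miR-324-3p, chr11:70012095-70012114, plus strand: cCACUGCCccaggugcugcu

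The sense strand of the 3′UTR of each member's main coding transcript was searched for the match to each seed, in GENCODE transcripts on GRCm38. The match to miR-324-5p (GGGATGC) stood in none of the 10, and in 7.91% of the 14370 genes with an annotated 3′UTR. The match to miR-324-3p (GGCAGTG) stood in *Camk2g*, *Camk1d* and *Camk1g*, and in 14.3% of all genes. The matches are printed as 22 bases of the transcript strand with the matched letters in capitals, so that the genes they belong to can be followed through the values given later.
Camk2g, base 1042 of the 3′UTR, chr14:20735810-20735831, minus strand: aggagtgaGGCAGTGggtaaga
Camk1d, base 1947 of the 3′UTR, chr2:5297023-5297044, minus strand: ttgtataaGGCAGTGatggcca
Camk1d, base 2636 of the 3′UTR, chr2:5296334-5296355, minus strand: gtgacagaGGCAGTGggaggct
Camk1d, base 4830 of the 3′UTR, chr2:5294140-5294161, minus strand: gcagagctGGCAGTGaggctac
Camk1g, base 83 of the 3′UTR, chr1:193347132-193347153, minus strand: ggaaggggGGCAGTGgaataga
Longer 3′UTRs held the match more often. The 3′UTR of *Camk1d* has 5526 bases, and 39.9% of the 632 UTRs of like length held the miR-324-3p match, against 21.2% for the 1990 bases of *Camk2g* and 10.4% for the 882 bases of *Camk1g*. A match is only a stretch of letters, and binding was not measured.

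The sum of the estimated counts of a sample lay between 12752439 and 19617765, and the members took from 289 counts (*Camk1g*) to 77204 counts (*Camk2a*) in a sample. The level of *Mir324* is not measured by mRNA libraries, so the deletion could not be checked here. Marker lists set the tissues apart. The summed level of dentate granule cell markers lay between 117 and 291 CPM (read counts normalised to library size) in the hippocampus and between 17.7 and 46.7 CPM in the neocortex, and that of neocortical layer markers lay between 126 and 186 CPM and between 353 and 586.5 CPM. Choroid plexus markers were high in 1 hippocampus sample of each genotype (195 CPM in WT replicate 3 and 124 CPM in null replicate 5, at most 28.2 CPM in the other hippocampus samples). Markers of striatal projection neurons, which neighbour the neocortex, lay between 118 and 301 CPM in the WT neocortex and between 167 and 463 CPM in the null neocortex, with the highest value of each genotype in WT replicate 2 and null replicate 3. These 4 samples, the highest of each hippocampus group in the choroid plexus list and of each neocortex group in the striatal list, are called below the samples with high marker lists. Null neocortex replicate 4, with 344 CPM of striatal markers, is not among them. Nor is null neocortex replicate 2, with 42.0 CPM of choroid plexus markers against at most 13.3 CPM in the rest of its group. These are bulk samples, in which fewer cells of a type and less RNA per cell cannot be told apart.

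*Camk2a* was by far the most abundant member in every group. Per transcript length, in TPM (abundance normalised to length and depth), it stood at 1553 ± 158 (SD, n = 5) in the WT hippocampus and 1278 ± 61.8 in the WT neocortex. *Camk2b*, the subunit that binds actin, followed at 562.5 ± 51.3 and 336 ± 28.2 TPM, and *Camk2g* at 116 ± 6.25 and 209 ± 22.1 TPM. The order of these 3 genes in TPM was the same in all 4 groups, and their samples did not overlap with those of the next in order within either WT tissue. In the WT hippocampus the short models Camk2g-204 (722 bases) and Camk2g-212 (673 bases) held 15.9% and 7.67% of the *Camk2g* TPM. Their means were 87.7 and 38.0 estimated counts. In CPM, which is not scaled to length, *Camkk1* stood above *Camk2g* there (195.7 against 189.4), with overlapping samples. Together the 4 *Camk2* genes summed to 2262 ± 183 TPM in the WT hippocampus and 1868 ± 63.3 TPM in the WT neocortex, and the 6 other members to 285 ± 16.2 and 366 ± 14.2 TPM.

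Below the leading genes the order differed between the tissues. In the WT hippocampus *Camkk1* came next with 95.3 ± 8.23 TPM, above all samples of *Camk1d* (55.1 ± 5.68 TPM). *Camk1d*, *Camkk2* (52.2 ± 4.13 TPM) and *Camk1* (49.5 ± 7.80 TPM) followed with overlapping samples, as did *Camk2d* (30.9 ± 9.87 TPM), *Camk1g* (17.6 ± 2.29 TPM) and *Camk4* (15.3 ± 1.36 TPM), each with its neighbour. In the WT neocortex *Camkk2* came next with 115 ± 12.7 TPM, followed without overlap by *Camk1* (86.3 ± 3.02 TPM) and *Camkk1* (68.4 ± 4.24 TPM). *Camk2d* (43.9 ± 8.40 TPM) overlapped with *Camk1d* (40.7 ± 1.88 TPM), and *Camk4* (28.4 ± 2.54 TPM) with *Camk1g* (27.7 ± 2.11 TPM).

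**Figure D1:**
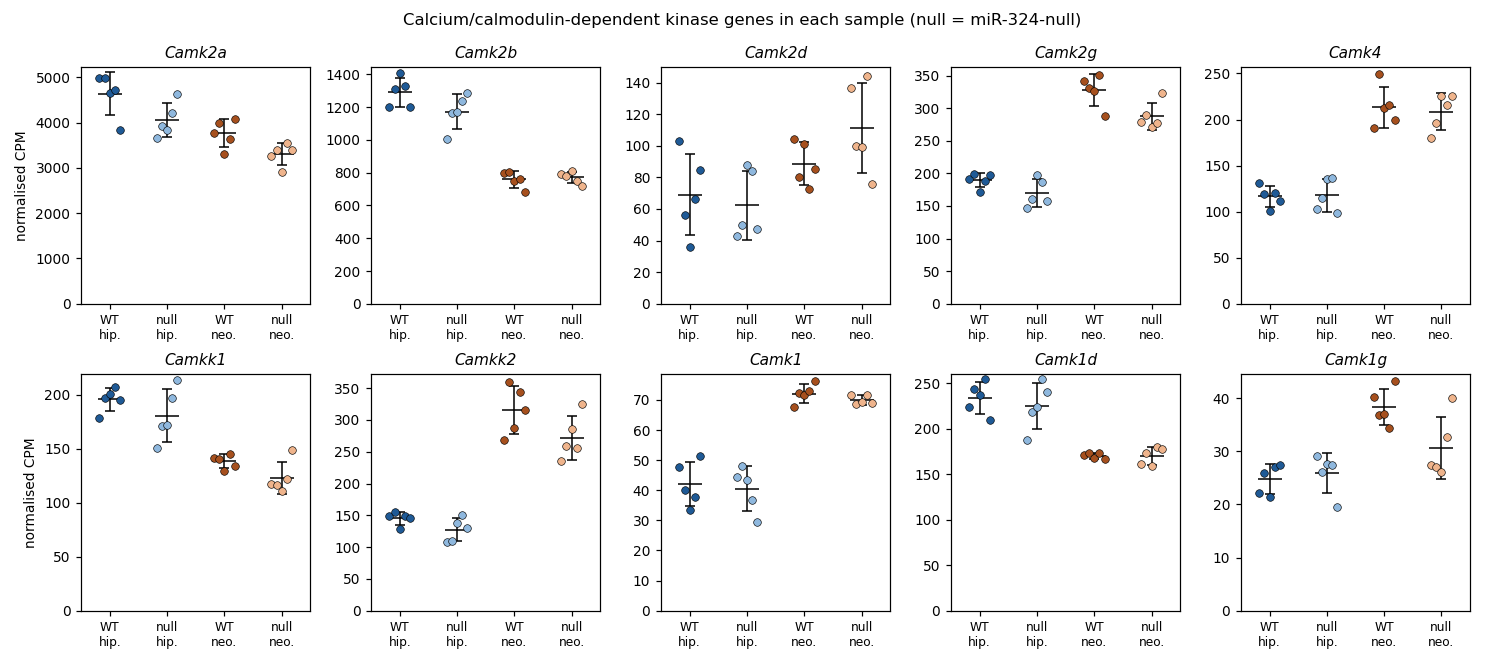
Normalised read counts (CPM, linear axes from 0) of each of the 10 genes in the 20 samples. Points are samples in the order of their replicate numbers, long bars are means and whiskers are SDs over 5 samples (hip., hippocampus; neo., neocortex; null, miR-324-null). *Camkk2* lies between 108 and 155.5 CPM in the 10 hippocampus samples and between 235 and 359 CPM in the 10 neocortex samples, while the genotypes overlap in every panel.

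The first comparison asked how the level of each kinase differed between the tissues of WT mice. Of the 10 members, 4 were higher in the hippocampus and 5 were higher in the neocortex at an adjusted p value of at most 0.05 (edgeR quasi-likelihood test, Benjamini-Hochberg over 15391 genes). Such calls were made for 33.5% of all genes tested, 16.6% higher and 16.9% lower in the hippocampus. The median log2 fold change (hippocampus over neocortex) was -0.50 over the members and -0.00055 over all genes. The WT tissues did not overlap at all for 8 members, 3 higher and 5 lower in the hippocampus, against 25.9% of all genes.

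*Camk2b* differed most among the CaMKII genes that were higher in the hippocampus. In CPM, its level in the 5 WT hippocampus samples was 1198, 1313, 1406, 1328 and 1203, and in the 5 WT neocortex samples 798, 806, 749, 759 and 682.5. All hippocampus samples lay above all neocortex samples, a fold of 1.70 (log2 fold change 0.77, SE 0.064, edgeR adjusted p value = 9.41e-09). *Camk2a*, the subunit most tied to long-term potentiation, had 4979, 4985, 4662, 4728 and 3846 CPM in the WT hippocampus and 3774, 4001, 3306, 3642 and 4082 CPM in the WT neocortex. The tissues overlapped through hippocampus replicate 5 (3846 CPM), and the mean was 1.23 times as high in the hippocampus (log2 fold change 0.30, SE 0.077, edgeR adjusted p value = 0.00402).

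*Camk2g* went the other way. Its WT levels were 191, 198, 172, 188 and 198 CPM in the hippocampus and 342, 331, 327, 351.5 and 288 CPM in the neocortex. The tissues did not overlap, and the hippocampus stood at 0.578 of the neocortex (log2 fold change -0.79, SE 0.075, edgeR adjusted p value = 5.29e-08). *Camk2d*, known best as the CaMKII of the heart, had 103, 56.4, 35.7, 66.1 and 84.6 CPM in the hippocampus and 104, 80.0, 101.2, 72.9 and 85.3 CPM in the neocortex. Relative to its mean it had the widest spread between WT hippocampus samples of the 10 members, and its tissue difference did not pass (log2 fold change -0.36, SE 0.24, edgeR adjusted p value = 0.284).

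The upstream kinases of the cascade went in opposite directions. *Camkk1* had 178, 197, 201, 207 and 195 CPM in the WT hippocampus and 142, 141, 129.8, 145.5 and 134 CPM in the WT neocortex. It was 1.41 times as high in the hippocampus, without overlap (log2 fold change 0.50, SE 0.083, edgeR adjusted p value = 6.61e-05). *Camkk2*, whose product also activates the energy sensor AMPK, had 149, 155.5, 128, 149 and 145 CPM in the hippocampus and 269, 359, 287, 345 and 316 CPM in the neocortex. With a log2 fold change of -1.11 (SE 0.10, edgeR adjusted p value = 2.7e-08) it showed the largest tissue difference of the 10 genes. On the TPM scale, the ratio of *Camkk2* to *Camkk1* was 0.55 ± 0.055 in the WT hippocampus, between 0.466 and 0.601, and 1.68 ± 0.20 in the WT neocortex, between 1.36 and 1.86. In every WT hippocampus sample *Camkk1* was the more abundant of the pair, and in every WT neocortex sample *Camkk2* was.

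The targets of that pair of kinases also differed among themselves. *Camk1d* was higher in the hippocampus, with 223, 244, 237.5, 255 and 209 CPM in WT against 171, 173, 167, 174 and 166.5 CPM in the WT neocortex (log2 fold change 0.46, SE 0.067, edgeR adjusted p value = 1.57e-05). *Camk1* was lower there, with 47.7, 40.0, 33.3, 37.9 and 51.5 CPM against 67.5, 72.3, 71.7, 72.9 and 76.2 CPM. Its log2 fold change was -0.78 (SE 0.11, edgeR adjusted p value = 9.09e-06), and neither *Camk1d* nor *Camk1* overlapped between the WT tissues.

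*Camk4* and *Camk1g* were higher in the neocortex as well. *Camk4* had 131, 119, 100.4, 121 and 112 CPM in the WT hippocampus and 190.5, 249, 212, 216 and 199 CPM in the WT neocortex (log2 fold change -0.87, SE 0.098, edgeR adjusted p value = 4.81e-07). *Camk1g*, the least abundant member by counts, had 22.1, 25.9, 21.4, 27.1 and 27.4 CPM against 40.2, 36.8, 37.0, 34.5 and 43.3 CPM (log2 fold change -0.63, SE 0.12, edgeR adjusted p value = 0.000234). For both genes the lowest neocortex sample lay above the highest hippocampus sample.

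In the miR-324-null mice the same comparison called 9 members, 4 higher and 5 lower in the hippocampus, where 32.5% of all genes were called, 16.1% higher and 16.4% lower (edgeR, as above). The groups did not overlap for 8 members, against 20.8% of all genes. *Camkk2* again had the largest difference (log2 fold change -1.10, SE 0.10, edgeR adjusted p value = 4.23e-08). *Camk2d* passed (log2 fold change -0.83, SE 0.24, edgeR adjusted p value = 0.0116) and *Camk1g* did not (log2 fold change -0.25, SE 0.12, edgeR adjusted p value = 0.12), the reverse of WT. *Camk2a* passed at 0.30 (SE 0.077, edgeR adjusted p value = 0.00475), but without the 4 samples with high marker lists its log2 fold change was 0.21 and its adjusted p value 0.0615.

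Whether the tissue difference itself depended on genotype was tested by an interaction term, and no member passed with edgeR or with DESeq2 (0.0195% of all genes passed with edgeR). At an unadjusted p value of at most 0.05 there was 1 member, *Camk1g*, where 5.57% of all genes reached that value. The interaction of *Camk1g* was 0.39 on the log2 scale (SE 0.17, edgeR adjusted p value = 0.88), and that of *Camk2d* was -0.47 (SE 0.34, edgeR adjusted p value = 0.945). The calls of these 2 genes in a single genotype are therefore not shown to differ between genotypes.

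**Figure D2:**
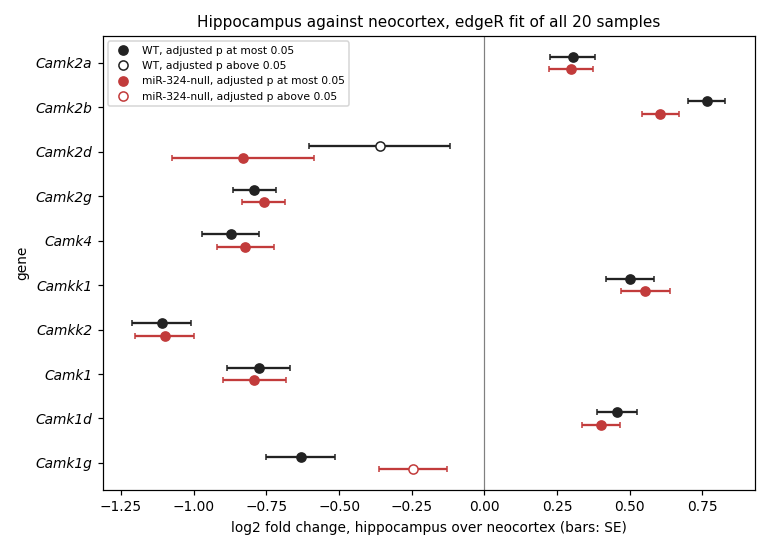
Log2 fold changes of the 10 genes between the tissues (x axis, hippocampus over neocortex), with bars of 1 SE, from an edgeR fit of all 20 samples. Filled points have an adjusted p value of at most 0.05. The WT and miR-324-null points lie on the same side of 0 for every gene, from -1.11 for *Camkk2* to 0.77 for *Camk2b* in WT.

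The make-up of CaMKII was compared as the share of each subunit gene in the summed TPM of the 4 genes, in exact two-sided permutation tests of 5 against 5 samples, for which 0.00794 is the smallest p value. The 12 p values of this kind are not adjusted. In WT, *Camk2b* made up 24.9% ± 1.92 of the hippocampus sum and 18% ± 1.39 of the neocortex sum, and the tissues did not overlap (exact permutation p = 0.00794). *Camk2g* made up 5.16% ± 0.53 and 11.2% ± 1.07, again without overlap (exact permutation p = 0.00794).

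The share of *Camk2a* was nearly the same in both tissues, 68.6% ± 2.16 in the WT hippocampus and 68.4% ± 2.50 in the WT neocortex (exact permutation p = 0.952). *Camk2d* was the smallest part, with 1.38% ± 0.49 and 2.35% ± 0.47 (exact permutation p = 0.0238). That p value was 0.0857 without the samples with high marker lists and 0.0556 on estimated counts (both exact permutation). On estimated counts the *Camk2g* difference was -3.59 percentage points instead of -6.05. The ratio of *Camk2a* to *Camk2b*, on the TPM scale, lay between 2.44 and 3.19 in the WT hippocampus and between 3.38 and 4.61 in the WT neocortex.

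No share differed between genotypes at an exact p value of at most 0.05. The largest differences were in the neocortex, where *Camk2a* made up 65.8% ± 1.71 in null and 68.4% ± 2.50 in WT samples (exact permutation p = 0.0794), and *Camk2b* 20.2% ± 1.85 and 18% ± 1.39 (exact permutation p = 0.0556).

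**Figure D3:**
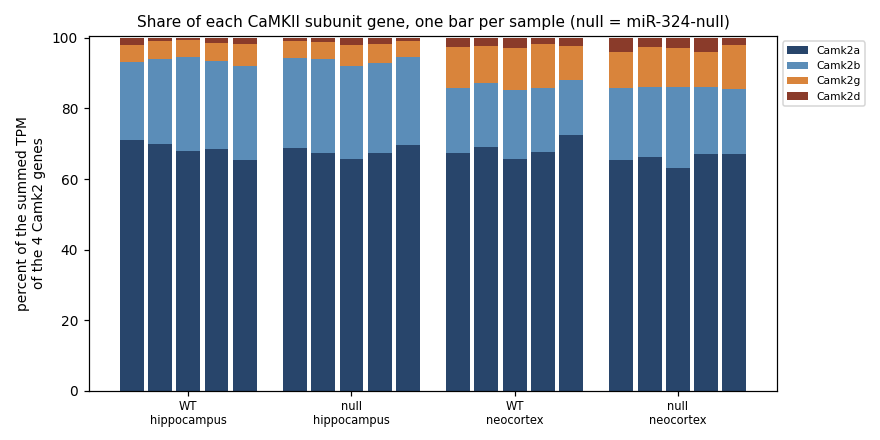
Share of each CaMKII subunit gene in the summed TPM of the 4 genes (y axis, percent), with 1 bar per sample in the order of replicate numbers within each group. *Camk2b* takes 22.2 to 26.8% in the WT hippocampus and 15.7 to 19.5% in the WT neocortex, and *Camk2g* takes 4.72 to 6.07% and 9.73 to 12.4%.

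By transcript, 52 of the 96 transcripts of the members passed the count filter in the fit of all samples. In the WT tissue comparison 6 of them were higher and 11 lower in the hippocampus, where 8.95% of all 41103 transcripts were called, 4.68% higher and 4.27% lower (edgeR adjusted p value at most 0.05). Most members rested on a single coding transcript. Camk2a-203 held 99.4% ± 0.12 of the TPM of *Camk2a* in the WT hippocampus and 99.0% ± 0.31 in the WT neocortex (exact permutation p = 0.00794, 1 of 60 p values for transcript shares, which are not adjusted). On estimated counts in place of TPM that difference fell from 0.45 to 0.18 percentage points (exact permutation p = 0.206). Camk4-201 is the only transcript of *Camk4* in the deposited data, so its share could not differ. Camk1d-201, 1 of 4 transcripts of its gene, held all of the TPM in WT. Camk1g-201 held 97.2% ± 3.93 and 96.1% ± 3.72, and Camkk2-201 88.6% ± 3.76 and 87.6% ± 2.64.

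The main transcript of *Camkk2*, which holds most of its gene, differed between the tissues much as the gene did. Camk4-201 has the counts of its gene, so its result is no separate finding. Camkk2-201 had a log2 fold change (hippocampus over neocortex) of -1.08 (SE 0.10, edgeR adjusted p value = 1.62e-06) and Camk4-201 one of -0.85 (SE 0.10, edgeR adjusted p value = 1.44e-05). For *Camkk1*, coding Camkk1-201 (log2 fold change 0.50, SE 0.10, edgeR adjusted p value = 0.00315) and Camkk1-203, which retains an intron (0.63, SE 0.17, edgeR adjusted p value = 0.0211), were both higher in the hippocampus. The call of Camkk1-203 was lost without the samples with high marker lists (edgeR adjusted p value = 0.0743). It was also lost when WT hippocampus replicate 2 or 4, or WT neocortex replicate 1 or 2, was left out.

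*Camk2b* was divided between the coding transcripts Camk2b-209, with 56.9% ± 3.97 in the WT hippocampus, and Camk2b-210, with 33.9% ± 4.57. Both were higher in the hippocampus, by 0.86 (SE 0.11, edgeR adjusted p value = 2.39e-05) and 0.66 (SE 0.18, edgeR adjusted p value = 0.0224) on the log2 scale. The call of Camk2b-210 was lost without the samples with high marker lists (edgeR adjusted p value = 0.0913). It was also lost when WT hippocampus replicate 2 or 3, or WT neocortex replicate 3 or 4, was left out. The transcript Camk2b-215 has 8 exons at the 3′ end of the gene and no coding sequence. It held 32.9%, 20.2%, 3.42%, 3.36% and 2.80% of *Camk2b* in the 5 null hippocampus samples and 7.06%, 3.36%, 2.12%, 1.09% and 11.6% in the 5 WT ones. The high values stand in null replicates 1 and 2, the groups overlap, and the difference did not pass (exact permutation p = 0.31). Kallisto divides reads among transcripts that share exons, and that division was not checked against the reads.

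Some coding transcripts of *Camk2g* and of *Camk2d* differ from each other by whole exons. The first 30 bases of these exons are shown because the transcripts compared next differ by them, as a 69-base and a 33-base exon of *Camk2g* and a 60-base and an 89-base exon of *Camk2d*, read from GENCODE transcripts on GRCm38. They have no capitals, since no letter is singled out.
Camk2g 69-base exon, chr14:20745831-20745860, minus strand: ccacagagcaacaacaaaaacagtctcgta
Camk2g 33-base exon, chr14:20747822-20747851, minus strand: aaaaggaagtcgagttccagcgtgcaccta
Camk2d 60-base exon, chr3:126805857-126805886, plus strand: ataaacaacaaagccaacgtggtaaccagc
Camk2d 89-base exon, chr3:126841485-126841514, plus strand: gccaccctgtattccaaatgggaaagagaa

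Camk2g-201 has both exons of *Camk2g*, Camk2g-202 has the 69-base exon alone and Camk2g-203 has neither. Camk2g-202 held 26.1%, 19.4%, 30.7%, 32.4% and 18.3% of the TPM of the gene in the WT hippocampus and 18.3%, 14.8%, 15.9%, 15.4% and 14.3% in the WT neocortex (exact permutation p = 0.00794). The tissues did not overlap, but the lowest hippocampus sample and the highest neocortex sample both round to 18.3%. By level, Camk2g-202 had a log2 fold change of -0.13 (SE 0.19, edgeR adjusted p value = 0.851), whereas Camk2g-201 (-1.11, SE 0.18, edgeR adjusted p value = 0.000314), Camk2g-203 (-0.97, SE 0.24, edgeR adjusted p value = 0.0144) and the incomplete coding model Camk2g-204 (-0.86, SE 0.12, edgeR adjusted p value = 8.41e-05) were lower in the hippocampus. Without the samples with high marker lists the call of Camk2g-203 was lost (edgeR adjusted p value = 0.0616).

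Over the complete coding transcripts of *Camk2g*, those with the 69-base exon took 56.5% ± 14.8 of the TPM in the WT hippocampus and 48.6% ± 5.36 in the WT neocortex, and those with the 33-base exon 20.8% ± 6.66 and 25.9% ± 3.78. For *Camk2d*, those with the 60-base exon took 76.5% ± 15.6 and 80.4% ± 5.19, and those with the 89-base exon 28.7% ± 2.98 and 25.3% ± 2. The spread was largest for the 60-base exon in the null hippocampus, where it ran from 37.8% to 97.1%. These exon shares are given as a description, without a test.

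The transcripts of *Camk1* also took different shares in the WT tissues. Camk1-201, the coding form, held 78.0% ± 4.61 in the WT hippocampus and 69.9% ± 4.70 in the WT neocortex (exact permutation p = 0.0159). Camk1-202, which retains an intron, held 11.8% ± 3.15 and 19.1% ± 3.69 (exact permutation p = 0.0159). Both were lower in the hippocampus by level, with log2 fold changes of -0.60 (SE 0.12, edgeR adjusted p value = 0.00188) and -1.43 (SE 0.41, edgeR adjusted p value = 0.0352). The call of Camk1-202 was lost without the samples with high marker lists (edgeR adjusted p value = 0.0518) and in 8 of the 10 fits that left out 1 WT sample.

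**Figure D4:**
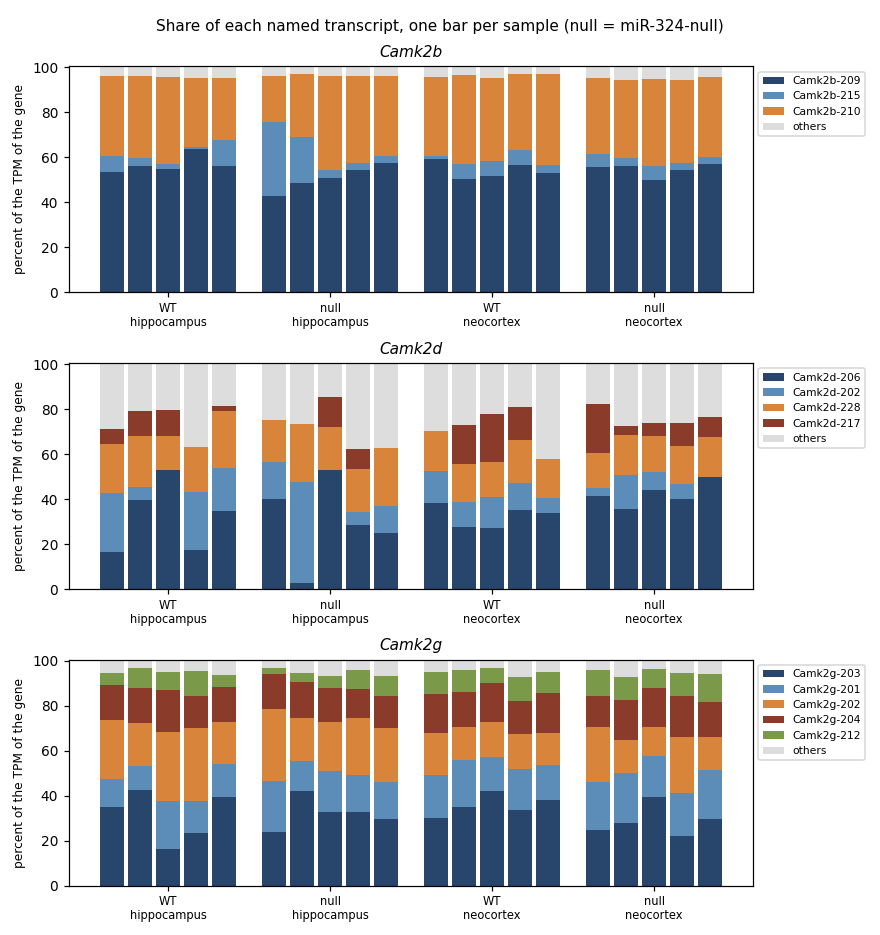
Share of each transcript with at least 10% of its gene's TPM in some group (y axis, percent of the TPM of the gene), with 1 bar per sample in the order of replicate numbers and the remaining transcripts in grey. Camk2b-215 takes 32.9% and 20.2% in null hippocampus replicates 1 and 2, and Camk2d-206 ranges from 2.49 to 53.0% in the null hippocampus.

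The study's own comparison was that of miR-324-null with WT mice within each tissue. No member passed in the hippocampus or in the neocortex, with edgeR or with DESeq2, and none was free of overlap between genotypes. In the hippocampus edgeR called 0.115% of all genes, and 2.48% were free of overlap. In the neocortex these shares were 0.315% and 2.33%. At an unadjusted p value of at most 0.05 there was 1 member in the hippocampus (*Camk2a*; 11.1% of all genes) and there were 5 in the neocortex (*Camk2a*, *Camk2g*, *Camkk1*, *Camkk2* and *Camk1g*; 12.2% of all genes). In the hippocampus the members had a median log2 fold change (null over WT) of -0.13, against 0.0012 over all genes, and in the neocortex one of -0.098, against 0.0046.

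*Camk2a* had nearly the same estimate in both tissues. The null hippocampus had 3668, 3919, 3827, 4222 and 4635 CPM, and the null neocortex 3272, 3388, 2903, 3542 and 3385 CPM. Against the WT values above, the log2 fold change was -0.20 in the hippocampus (SE 0.081, edgeR adjusted p value = 0.40) and -0.18 in the neocortex (SE 0.065, edgeR adjusted p value = 0.283). In the hippocampus all 5 null samples lay below every WT sample but replicate 5 (3846 CPM), and in the neocortex the samples overlapped from 3306 to 3542 CPM.

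The other CaMKII genes had negative estimates in the hippocampus, none of which passed, and estimates of either sign in the neocortex. *Camk2b* had a log2 fold change of -0.14 in the hippocampus (SE 0.072, edgeR adjusted p value = 0.499) and 0.030 in the neocortex (SE 0.054, edgeR adjusted p value = 0.881). *Camk2g*, with a miR-324-3p match in its 3′UTR, had 147, 160.5, 198, 186 and 157.5 CPM in the null hippocampus (log2 fold change -0.16, SE 0.080, edgeR adjusted p value = 0.491) and 279, 289.5, 271, 277 and 323 CPM in the null neocortex (-0.18, SE 0.061, edgeR adjusted p value = 0.262). *Camk2d* had 42.8, 49.97, 87.7, 83.9 and 47.2 CPM in the null hippocampus and 137, 100, 99.2, 144 and 76.0 CPM in the null neocortex. Its estimates were -0.15 (SE 0.27, edgeR adjusted p value = 0.884) and 0.33 (SE 0.16, edgeR adjusted p value = 0.427). In the hippocampus the null samples lay within the WT range, and in the neocortex 2 null samples (137 and 144 CPM) lay above every WT sample and the 3 others within the WT range.

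Among the cascade kinases, *Camkk2* had like estimates in both tissues, -0.19 in the hippocampus (SE 0.091, edgeR adjusted p value = 0.46) and -0.21 in the neocortex (SE 0.094, edgeR adjusted p value = 0.398). *Camkk1* lies 3.01 Mb from *Mir324* on chromosome 11, and it was estimated at -0.12 (SE 0.084, edgeR adjusted p value = 0.649) and -0.16 (SE 0.070, edgeR adjusted p value = 0.38). *Camk4*, *Camk1* and *Camk1d* had estimates between -0.057 and 0.016 in both tissues. *Camk1d*, with 3 miR-324-3p matches, was at -0.056 in the hippocampus (SE 0.080) and 0.0070 in the neocortex (SE 0.045), with edgeR adjusted p values of 0.845 and 0.971.

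*Camk1g*, which holds 1 such match close to the start of its 3′UTR, had the largest difference of the cascade kinases. The null neocortex samples had 27.4, 27.1, 26.2, 32.8 and 40.1 CPM, and 4 of the 5 lay below the lowest WT sample (34.5 CPM). The log2 fold change was -0.31 (SE 0.11, edgeR adjusted p value = 0.269). In the hippocampus the null samples had 29.2, 26.1, 27.6, 27.4 and 19.5 CPM, with a log2 fold change of 0.067 (SE 0.11, edgeR adjusted p value = 0.868).

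The neocortex result turned on null replicate 5. Without that sample 3 members passed, all lower in null: *Camk1g* (log2 fold change -0.43, SE 0.081, edgeR adjusted p value = 0.0147), *Camkk1* (-0.24, SE 0.047, edgeR adjusted p value = 0.0187) and *Camk2g* (-0.22, SE 0.056, edgeR adjusted p value = 0.0489). The call rate over all genes moved as well, from 0.315% to 3.76%, with 1.73% lower and 2.03% higher in null. Null replicate 5 also stood apart from the 4 other null samples in marker lists. Its neocortical layer markers summed to 586.5 CPM, above the WT samples (485 to 550.2 CPM), while the 4 other null samples lay at 353 to 448 CPM, below all WT samples. Its CA1 pyramidal cell markers summed to 68.9 CPM, within the WT range (57.7 to 92.7 CPM), while the 4 other null samples lay at 116 to 168.5 CPM. In the neocortex that CA1 sum was mostly *Wfs1* (means of 75.2 CPM in WT and 114 CPM in null), with little *Fibcd1* (6.31 and 14.1 CPM). In the layer sum *Lamp5* was largest (262 and 225 CPM), and *Rprm* alone was not lower in null (45.3 and 47.95 CPM). In the interneuron and CA3 lists null replicate 5 again lay within the WT range (781 and 78.3 CPM). The 4 other null samples lay above that range, at 817 to 895 and 85.1 to 99.4 CPM. In the astrocyte and microglia lists null replicate 5 lay below all WT samples (852 and 177.5 CPM), as did null replicate 3 (941 and 192 CPM). The part of these marker differences in the results for *Camk1g*, *Camkk1* and *Camk2g* was not tested.

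**Figure D5:**
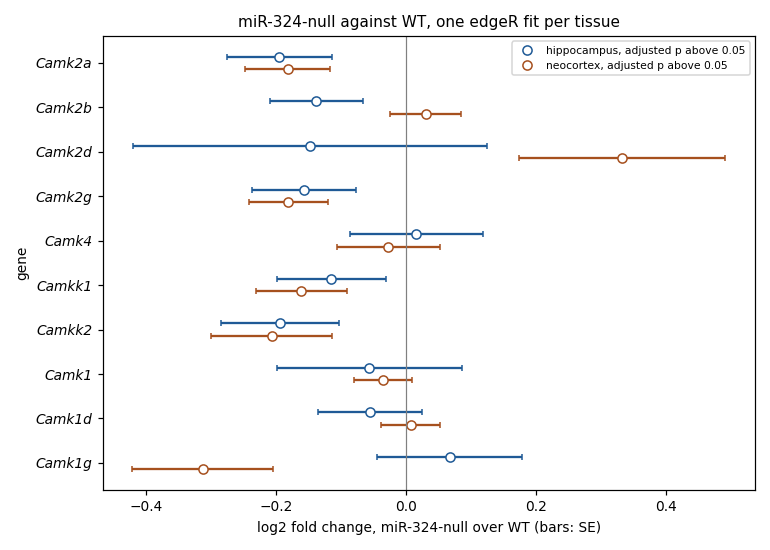
Log2 fold changes of the 10 genes between genotypes (x axis, miR-324-null over WT), with bars of 1 SE, from an edgeR fit of each tissue. All points are open, since no adjusted p value was at or below 0.05. *Camk2a* lies at -0.20 for the hippocampus and at -0.18 for the neocortex. *Camk2d* and *Camk1g* have the widest gap between the tissues.

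By transcript, 40 member transcripts were tested between genotypes in the hippocampus and 47 in the neocortex. None passed with edgeR or DESeq2 (0.0291% and 0.0249% of all transcripts passed with edgeR). At an unadjusted p value of at most 0.05 there were 1 and 5, against 4.62% and 6.26% of all transcripts. The single one in the hippocampus was Camkk1-203 (log2 fold change -0.45, SE 0.17, edgeR adjusted p value = 1). In the neocortex Camk2d-206 (0.65, SE 0.19, edgeR adjusted p value = 0.604) was higher in null and Camk2g-203 (-0.47, SE 0.14, edgeR adjusted p value = 0.636) lower, beside Camk2a-203 (-0.19), Camk1g-201 (-0.33) and Camk2d-227 (1.13), the last named after its values were seen.

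In the neocortex, Camk2d-206 held 41.2%, 35.5%, 43.9%, 40.2% and 49.8% of the TPM of *Camk2d* in null and 38.2%, 27.5%, 27.1%, 35.3% and 33.7% in WT samples. The groups overlapped, and the means of 42.1% and 32.3% gave an exact permutation p of 0.0159, the only value at or below 0.05 among the 40 genotype comparisons of transcript shares. It was 0.0571 (exact permutation) without the samples with high marker lists.

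The surroundings of the kinases were described with 40 genes in 10 lists, all of which were tested. In the WT tissue comparison 15 were higher and 14 lower in the hippocampus (edgeR), against 33.5% of all genes called. Both CaMKII inhibitors were lower in the hippocampus, *Camk2n1* with a log2 fold change of -1.37 (SE 0.11, edgeR adjusted p value = 2.6e-09) and *Camk2n2* with -0.52 (SE 0.12, edgeR adjusted p value = 0.00292). Both phosphatases that act on CaMKs were higher there, *Ppm1e* (0.72, SE 0.071, edgeR adjusted p value = 8.14e-08) and *Ppm1f* (0.13, SE 0.045, edgeR adjusted p value = 0.0294). The inhibitors had the direction of *Camk2g*, opposite to that of *Camk2a* and *Camk2b*.

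In the calmodulin list, *Calm3* was higher in the hippocampus (log2 fold change 0.18), and *Calm2* did not pass (-0.0074). Among 3 neuronal proteins that bind calmodulin, *Pcp4* (-0.93) and *Nrgn* (-0.45) were lower. The related kinases split into 3 higher and 3 lower, with *Camkv* (0.84), a pseudokinase, and *Dclk2* (0.74) the largest. Of the calcineurin list 3 were higher and 2 lower, led by its inhibitor *Rcan2* (-0.99) and the catalytic subunit *Ppp3ca* (0.47). All of these edgeR adjusted p values were at or below 0.05 except that of *Calm2*.

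Downstream, in the list of synaptic partners of CaMKII, *Grin2b*, the NMDA receptor subunit to which CaMKII binds, was higher in the hippocampus (log2 fold change 0.39). In the CREB list 2 of 7 were higher, the co-activators *Crtc3* (0.58) and *Crtc1* (0.45), and 1 was lower. The AMPK subunit *Prkaa2*, a target of CaMKK2, was lower (-0.72) and *Prkaa1* higher (0.22). Of the 5 class IIa HDACs and MEF2 factors, which CaMKs regulate, 1 was higher and 2 lower, with *Mef2c* (-1.97, SE 0.20, edgeR adjusted p value = 1.09e-07) furthest from 0 of all 40 genes and *Mef2a* at 0.30.

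Between genotypes none of the 40 passed with edgeR in either tissue, with 10 in the hippocampus and 11 in the neocortex at an unadjusted p value of at most 0.05, against 11.1% and 12.2% of all genes. Over all genes DESeq2 called 0.939% for the hippocampus and 1.61% for the neocortex. Among the 40 it called 2 in the hippocampus, *Crtc1* (log2 fold change -0.27) and *Crebbp* (-0.23), and 4 in the neocortex, *Gap43* (0.41), *Grin2b* (0.32), *Lrrc7* (0.32) and *Mef2d* (-0.16), all named after their values were seen.

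The gene most like each member across the 20 samples was the one with the smallest root mean square difference in log2 CPM after each gene was centred on its own mean, among 15381 other genes. *Camk1d* had the closest such gene, *Nckap1* (0.062), followed by *Camk2g* with *Kcnj9* (0.074). Of the CaMKII genes, *Camk2a* was nearest to *Szrd1* (0.091), *Camk2b* to *Wasf1* (0.091) and *Camk2d* to *Klhdc8a* (0.23). Of the cascade kinases, *Camkk1* was nearest to *Otub2* (0.096), *Camkk2* to *Atp2b2* (0.11), *Camk4* to *Fgf12* (0.11), *Camk1* to *Bend6* (0.12) and *Camk1g* to *Lingo1* (0.15). The 20 samples share 2 tissues, so a gene with a like tissue difference comes out as near. The measure is not scaled to how much a gene varies, so it tends to be small for genes that vary little. On the same scale, the deviation of a member from its own mean ran from 0.21 (*Camk2a*) to 0.58 (*Camkk2*). It was 0.23 for *Camk1d*, 0.41 for *Camk2g* and 0.52 for *Camk2d*.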

How the data were processed

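Per the labels and the paper, total RNA of each sample was made into TruSeq Stranded mRNA libraries and sequenced on a NextSeq instrument, and the authors estimated transcript abundance with kallisto against mouse GRCm38 transcripts, while the submitters' processing notes name GRCh38. The deposited estimated counts and TPM per transcript were used as deposited. Of 115270 transcripts, 113580 were matched by identifier to GENCODE on GRCm38 and summed to genes. The remaining 1690 were dropped.

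For testing, estimated counts were rounded to whole numbers, filtered with edgeR's filterByExpr, scaled by TMM and tested with edgeR 4.0.16 (quasi-likelihood, limma 3.58.1, R 4.3.3), with Benjamini-Hochberg adjustment over all genes or transcripts. Genotypes were fitted per tissue, and tissues and the interaction in a fit of all 20 samples, which takes samples of both tissues as independent. Each SE given is the absolute log2 fold change divided by the square root of the F statistic of the edgeR test. CPM is TMM-normalized, and centred log2 CPM used a prior count of 2. Shares are percentages of TPM, compared by exact permutation tests in Python 3.11.15 with scipy 1.17.1, numpy 2.4.6 and pandas 2.3.3. The labels do not say which samples of the tissues come from the same mouse, and p values measure the spread between samples. SDs leave out kallisto's own error in assigning shared reads.

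Alternatives were DESeq2 1.42.0, its size factors, no filter, a transcript-length offset, other sample sets, the replicate number as a block, each replicate left out and, added after seeing the data, leaving out 4 samples with high marker lists. Scripts were tested on simulated data. Named are the 10 members, transcripts with at least 10% of a gene's TPM in some group mean, and in the tissue comparison of WT up to 2 genes per pathway list with the largest log2 fold change among those called, and some of the latter are not reported here. The members, lists and tests were chosen with earlier results of these data known.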

Additional observations from a re-analysis of the deposited data

Results flagged for a closer look

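Of 148 groups of 5 values (levels and shares), 7 held a sample far from the 4 others, and chance gives about 1 in 20. In WT hippocampus replicate 5, *Camk2a* stood at 3850 CPM against 4660 to 4980 CPM in the others, the share of *Camk2g* in the CaMKII sum was 6.07% against 4.72 to 5.06%, and Camkk2-201 held 82.1% of *Camkk2* against 89.2 to 91.7%. Camk2b-209 held 63.7% of *Camk2b* in WT hippocampus replicate 4, against 53.4 to 56.3%. In the WT neocortex, Camk2a-203 held 98.4% of *Camk2a* in replicate 1, against 99.0 to 99.2%, and Camk2g-212 held 6.63% of *Camk2g* in replicate 3, against 9.66 to 10.6%. Camk1g-201 held 75.7% of *Camk1g* in null hippocampus replicate 2, against 96 to 100%, in a gene of low counts. No member met the test of a genotype difference that depends on tissue.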

How the results depend on the processing

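The number of members called stayed at 0 between genotypes in both tissues and for the interaction, and at 9 for tissue in WT, with DESeq2, its size factors, no filter, the length offset and the other sample sets. It was 8 for tissue in miR-324-null mice without the samples with high marker lists. When single samples were left out, the number called between genotypes in the neocortex lay between 0 and 3, and all others kept their number. Between genotypes over all genes, edgeR called 17 in the hippocampus and 47 in the neocortex. With a sample left out the hippocampus gave 10 to 31, the highest without null replicate 5. DESeq2 called 139 and 240, the fit of all 20 samples 83 and 56, and the neocortex gave 30 with the length offset or without the samples with high marker lists and 27 to 566 with a sample left out, the highest without null replicate 5, where 8 of the pathway genes passed. For the interaction the count was 3, with 11 by DESeq2, 1 with the offset or without the samples with high marker lists, and 1 to 20 with a sample left out. Over all transcripts the counts were 10 and 9, against 108 and 206 by DESeq2 and 3 and 5 without the samples with high marker lists, and 4 to 12 and 6 to 24 with a sample left out. The pathway genes called were 2 in the hippocampus with DESeq2 or the fit of all 20 samples and 4 in the neocortex with DESeq2.

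Member transcripts called for tissue in WT fell from 17 to 11 (all transcripts from 3678 to 2373) without the samples with high marker lists, where Camk2d-228 was at 0.10 on the log2 scale instead of -0.11. With a sample left out the number lay between 12 and 17 (all transcripts between 2911 and 3537). With estimated counts in place of TPM, the difference in the *Camk2a* share between WT tissues was -1.24 percentage points instead of 0.12, and 1 subunit share differed between genotypes in the neocortex. With samples left out, the number of subunit shares that differed between genotypes in the neocortex lay between 0 and 2, and of transcript shares between 0 and 1 in the hippocampus and between 1 and 4 in the neocortex. Log2 fold changes between genotypes crossed 0 when a sample was left out for *Camk1* (-0.13 to 0.040), *Camk1d* (-0.10 to 0.0017), *Camk2d* (-0.31 to 0.042) and *Camk4* (-0.044 to 0.074) in the hippocampus and for *Camk1d* (-0.015 to 0.029), *Camk2b* (-0.012 to 0.056) and *Camk4* (-0.068 to 0.029) in the neocortex. Between WT tissues the same held for Camk2d-202 (-0.27 to 0.50) and Camk2d-228 (-0.29 to 0.092) and for the share of *Camk2a* (-0.55 to 1.10 percentage points). None of these differences had passed its test. The causes were not tested.

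The replicate numbers did not meet the criterion for pairs, a correlation of same-numbered deviations over 0.1 in every pair. The correlation lay between -0.172 and 0.177. It came closest for the tissues of miR-324-null mice, where all 5 were positive (0.017 to 0.177), 3 were over 0.1 and 3 samples correlated best with their own number, a hint from the data and not from the design. With the replicate block, edgeR called the same number of members (0 between genotypes, 9 for tissue in WT and 9 in miR-324-null mice), 13 of the member transcripts for tissue in WT, and 4 and 30 of all genes and 0 and 1 of all transcripts between genotypes in the hippocampus and neocortex, and 0 genes for the interaction. Apart from leaving out single samples, the alternatives, the block among them, called 4040 to 5378 of all genes for tissue in WT. For tissue in miR-324-null mice they called 4125 to 5088 of all genes, and for tissue in WT 2373 to 4854 of all transcripts. Camk2d-202 turned to -0.36 between WT tissues under the block. Paired sign flips of 5 pairs cannot go below 0.0625, so 0 subunit shares and 0 transcript shares passed under the block.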
